A study of Arabidopsis thaliana with 21 samples.

Results

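The effect of PAP in leaves that also took up ATP was measured as PAP + ATP against ATP alone, over all genes, in 6 of the 21 mRNA libraries of the series. The members were the 3 libraries of excised leaves fed PAP + ATP and the 3 of leaves fed ATP, and 17710 of the 21156 genes listed in the series passed the expression filter and had values in both groups. Leaves came from 35-day-old Arabidopsis thaliana plants, F1 hybrids between the Col-0 and Ler accessions, and drank the solutions through the cut petiole in a weakly buffered salt and sucrose solution. According to the sample labels, the PAP + ATP leaves received 100 µM PAP with 1 mM ATP, and the ATP leaves received 1 mM ATP without PAP. The treatment notes give PAP doses of 1 mM and 100 mM instead, so the dose of PAP is uncertain, and the time of feeding is not given. Leaves fed PAP alone at the same labelled dose and leaves fed buffer alone, called control, gave the effect of PAP without ATP, and leaves fed PAP with 100 mM LiCl or LiCl alone gave its effect with LiCl. The labels do not say whether the 3 libraries of a group were separate plants, and each p-value below therefore speaks only of the variation among libraries. No comparison here concerns a mutant, so all effects are those of supplied compounds on detached leaves.

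PAP (3′-phosphoadenosine 5′-phosphate) is the by-product of sulfation reactions that use the sulfate donor PAPS. In Arabidopsis it is degraded by the phosphatase SAL1, and when it accumulates under drought or high light it inhibits the 5′ to 3′ exoribonucleases of the XRN family. ATP outside the cell acts as a damage signal: it is bound by the receptor kinase DORN1, which leads to calcium entry, to oxidant production by the NADPH oxidase RBOHD and to expression of defence genes, many of them shared with the jasmonate wound response. The comparison asked whether leaves fed PAP together with ATP differed in their transcriptome from leaves fed ATP alone.

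Libraries held 22744596, 21945958 and 19190821 reads assigned to genes for PAP + ATP (libraries 16, 17 and 18 by column number) and 23050737, 23623910 and 24471398 for ATP (libraries 4, 5 and 6). Photosystem genes were abundant in both groups, as in leaf tissue, and none of 7 root and flower markers passed the expression filter. ATP library 4 carried 1.22% plastid-encoded and 0.996% ribosomal RNA reads, while none of the other 5 libraries exceeded 0.0485% and 0.0154%. PAP + ATP library 18 and ATP library 6 stood somewhat apart: their mean correlations with the other libraries of their group were 0.946 and 0.943, against 0.954 to 0.964 for the other 4. The median SD of a gene within the group was 0.32 log2 units in PAP + ATP and 0.31 in ATP. It was 0.40 in control and 0.37 in PAP, but 0.25 to 0.26 in the groups fed LiCl. Values below are CPM, reads scaled to the library's total of assigned reads, listed for libraries 16, 17 and 18 of PAP + ATP and then 4, 5 and 6 of ATP. Changes are differences of log2(CPM + 0.5), PAP + ATP minus ATP, with the standard error from limma, and this scale understates the change of genes near 1 CPM. That standard error was estimated from all 7 groups together, including those with a smaller spread.

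No gene passed an adjusted p of 0.05 in limma among the 17710 tested (percent called 0), and the smallest adjusted p was 0.103. With only the 6 libraries compared in the fit, the smallest limma adjusted p was 0.264. At an unadjusted p under 0.05, 1247 genes were higher with PAP + ATP (7.04%) and 650 were lower (3.67%). The quasi-likelihood test of edgeR on recovered whole reads also called 0 genes (960 higher and 1054 lower at an unadjusted p under 0.05), whereas DESeq2 on the same reads called 127 of 17432, 59 higher (0.338%) and 68 lower (0.39%). The smallest edgeR adjusted p was 0.134, so genes with a small DESeq2 value below did not pass in edgeR. DESeq2 values are printed for only part of the named genes. A gene is called separated here when its 3 PAP + ATP libraries all lay above, or all lay below, its 3 ATP libraries. In total 2218 genes (12.5%) were separated upward and 1019 (5.75%) downward. After median-of-ratios scaling the numbers were 1660 and 1608, and the median change over all genes, 0.11 as deposited, was 0.0081. A positive change was found in 60.6% of all genes as deposited and in 50.8% after scaling. The excess of upward over downward values thus depended on the scaling, and the counts of separated and of positive members below are to be read against these shares. The 95% confidence interval of a gene's change, not adjusted for the number of genes tested, reached a median of 0.65 log2 units to either side. Passing an adjusted p of 0.05 needed a larger change than that for a typical gene. The lack of calls therefore does not exclude changes above that size. A total of 516 genes had a change above 1 and 345 had one below -1.

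Genes of the extracellular ATP and early damage response lay higher in the leaves fed PAP + ATP than in those fed ATP. All 14 members tested had a positive change, 8 were separated upward and none downward, and the median change was 0.76 against 0.11 for all genes. RBOHD (AT5G47910), the plasma membrane NADPH oxidase of the damage response, had 163, 201 and 245 CPM with PAP + ATP, against 104, 82.2 and 81.3 CPM with ATP. The lowest PAP + ATP library was above the highest ATP library, and the change was 1.17 ± 0.23 (limma adjusted p = 0.183, DESeq2 adjusted p = 0.00499, edgeR adjusted p = 0.247). WRKY18 (AT4G31800), a defence transcription factor, stood at 521, 441 and 332 CPM with PAP + ATP and 147, 183 and 146 CPM with ATP. Its change was 1.43 ± 0.46 (limma adjusted p = 0.316, DESeq2 adjusted p = 0.149). SZF1 (AT3G55980), which encodes a zinc finger protein of early elicitor responses, had 162, 198 and 118 CPM in PAP + ATP leaves and 93.7, 69.9 and 68.6 CPM in ATP leaves. ACS6 (AT4G11280), an ethylene synthesis gene, had 102, 131 and 96.6 CPM against 63, 61 and 72.7 CPM, and these groups did not overlap either. The protein kinase gene MPK3 (AT3G45640) had 121, 163 and 140.1 CPM with PAP + ATP and 108, 84.3 and 77.7 CPM with ATP. DORN1 (AT5G60300) itself, the receptor gene, gave overlapping groups, with 251, 101 and 119 CPM in PAP + ATP and 136, 119 and 52.3 CPM in ATP (change 0.61 ± 0.42, but 0.18 without ATP library 6 and 0.21 without PAP + ATP library 16).

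Promoters of this group were searched for the core of the W-box, the element bound by WRKY factors, spelled TTGAC and counted on both strands within 250 bases before the annotated start. Of 27444 protein-coding genes in the RefSeq TAIR10.1 annotation 44.9% held at least 1 match, and of the 14 list members 10 did (71.4%). The share was 14 of 24 (58.3%) for the jasmonate and 7 of 21 (33.3%) for the circadian clock genes described below. The promoters of RBOHD and SZF1 are shown because they are separated members that hold the core, with 1 and 4 matches. WRKY18 and MPK3 held none in this window, and ACS6 held 1. Capitals mark the matches, and sequences are RefSeq TAIR10.1, on the plus strand for both genes, at chr5:19396791-19397040 and chr3:20775970-20776219.
RBOHD: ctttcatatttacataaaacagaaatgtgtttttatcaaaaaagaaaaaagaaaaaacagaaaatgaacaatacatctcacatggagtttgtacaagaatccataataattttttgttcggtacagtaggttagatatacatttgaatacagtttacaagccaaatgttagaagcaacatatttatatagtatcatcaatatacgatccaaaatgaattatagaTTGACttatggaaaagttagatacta
SZF1: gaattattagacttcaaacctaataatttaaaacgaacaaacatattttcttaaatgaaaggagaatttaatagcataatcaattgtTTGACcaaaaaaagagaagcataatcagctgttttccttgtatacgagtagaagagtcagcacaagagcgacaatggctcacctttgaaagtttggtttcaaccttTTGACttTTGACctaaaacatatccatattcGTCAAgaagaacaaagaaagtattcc
A match describes only the letters of the window and does not show a bound site.

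**Figure D1:**
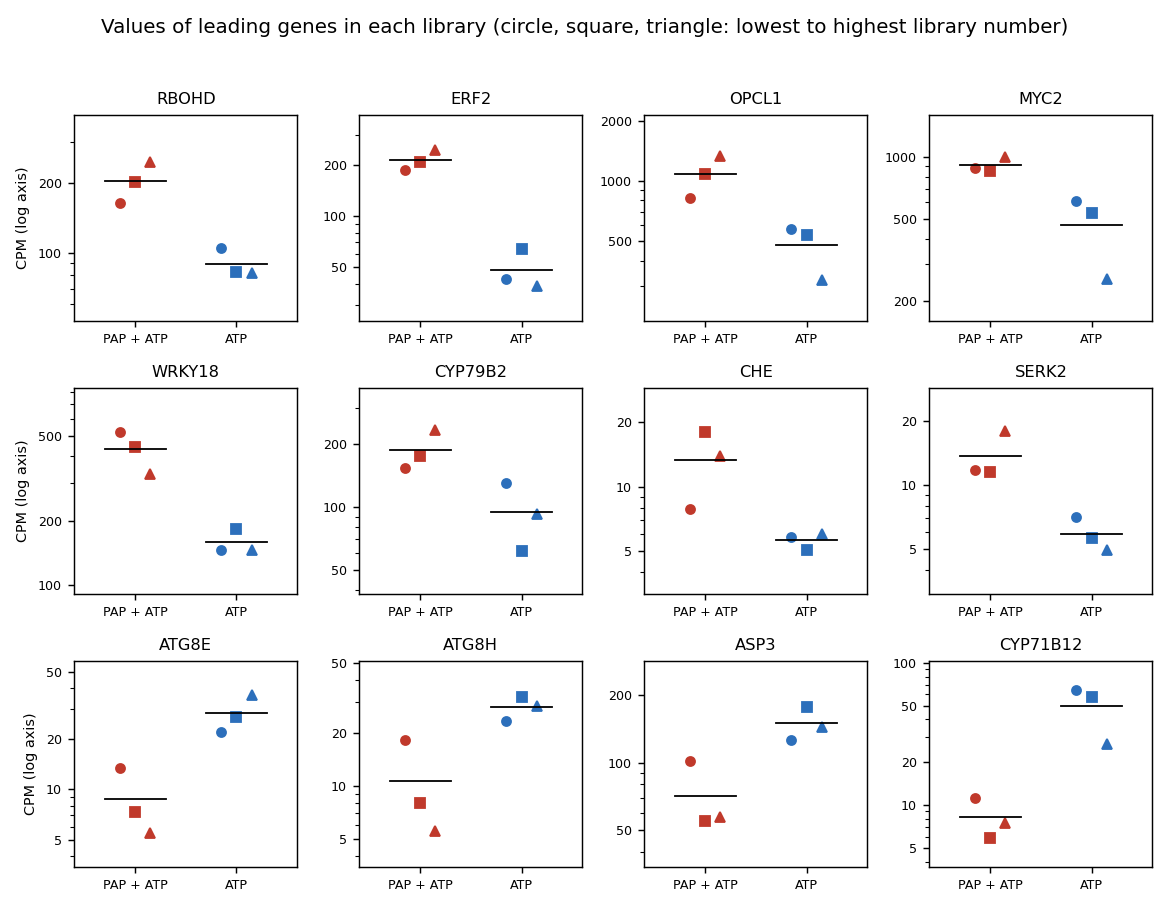
Values of 12 leading genes in each library, in CPM on a log axis, with PAP + ATP (red) left of ATP (blue). Points are single libraries and the line is the mean of 3; RBOHD lies between 163 and 245 CPM with PAP + ATP and between 81.3 and 104 CPM with ATP, and ATG8E between 5.52 and 13.4 CPM and between 22.0 and 36.5 CPM.

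Jasmonate genes, which act in wounding and defence, also lay higher. Of 24 tested, 21 had a positive change, 10 were separated upward and 2 downward, with a median of 0.55. DESeq2 called 0 of these 24. Without ATP library 6, in which several of these genes were lowest, the median was 0.33. MYC2 (AT1G32640), the central transcription factor of the pathway, had 884, 853 and 999.9 CPM with PAP + ATP, against 609.5, 531 and 255 CPM with ATP. ATP library 6 was lowest, yet the other ATP libraries were also below every PAP + ATP library, and the change was 1.06 ± 0.27 (limma adjusted p = 0.261), or 0.68 without ATP library 6. JAZ2 (AT1G74950) and JAZ5 (AT1G17380) encode repressors that MYC2 induces. JAZ2 had 991, 563 and 735 CPM in PAP + ATP leaves and 431, 459 and 175 CPM in ATP leaves. JAZ5 had 447, 396 and 473 CPM and 260.1, 255 and 124 CPM in the same order, and JAZ7 (AT2G34600) had 186, 115 and 171 CPM and 72.3, 86.4 and 19.7 CPM. Among synthesis genes the lipoxygenase LOX4 (AT1G72520) stood at 1557, 1459.9 and 1282 CPM with PAP + ATP and 593, 702 and 311 CPM with ATP. OPCL1 (AT1G20510), a peroxisomal CoA ligase of jasmonate synthesis, was outside this list and was named for its small p among all genes. It had 825, 1078 and 1336 CPM against 576, 538 and 321 CPM, a change of 1.19 ± 0.26 (limma adjusted p = 0.2, DESeq2 adjusted p = 0.0306). The JAZ-like gene AT3G22275, outside this list, was named for its large change. It had 141, 88.7 and 164 CPM with PAP + ATP and 53.1, 53.3 and 6.62 CPM with ATP, where library 6 alone was far below the others. ERF2 (AT5G47220), an ethylene response factor gene also outside the list, was named for its small p and large change. It was separated, with 186, 209 and 246 CPM against 42.5, 64.2 and 38.8 CPM and a change of 2.15 ± 0.45 (limma adjusted p = 0.2, DESeq2 adjusted p = 0.0151). The redox-responsive factor gene RRTF1 (AT4G34410), from the high light and oxidative stress list, had 426, 222 and 154 CPM in PAP + ATP leaves and 103, 119.9 and 44.5 CPM in ATP leaves.

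The G-box, spelled CACGTG and identical on both strands, is the element bound by MYC2. It occurred in 6.49% of all promoters of 250 bases and in 4 of 24 jasmonate members (16.7%). It was more frequent among the circadian clock genes described below, at 7 of 21 (33.3%), so it was not particular to the jasmonate list. JAZ2 and JAZ7 each held 1 match, whereas the promoters of MYC2 and JAZ5 held none in this window. The JAZ2 promoter is shown because the match lies 66 bases before the start of a separated member, at chr1:28150447-28150696 on the minus strand of RefSeq TAIR10.1.
JAZ2: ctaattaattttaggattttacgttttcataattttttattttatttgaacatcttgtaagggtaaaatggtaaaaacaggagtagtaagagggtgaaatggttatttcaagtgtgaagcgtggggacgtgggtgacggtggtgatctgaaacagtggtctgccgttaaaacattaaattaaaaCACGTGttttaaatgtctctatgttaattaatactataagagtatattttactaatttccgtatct
Capitals mark the G-box.

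Ethylene genes did not move together: of 14 tested, 7 were higher and 7 lower, with a median of 0.00, and 3 were separated upward. EBF1 (AT2G25490), an F-box protein gene that restrains ethylene signalling, had 280.1, 158 and 378 CPM with PAP + ATP and 112, 129 and 66.8 CPM with ATP (change 1.37 ± 0.35). Early auxin genes were mixed as well, with 7 of 13 higher, 3 separated upward and none downward. GH3.3 (AT2G23170), which conjugates auxin to amino acids, had 15.9, 6.47 and 8.44 CPM in PAP + ATP leaves and 1.65, 1.14 and 6.29 CPM in ATP leaves.

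Genes of indole glucosinolate synthesis, the defence compounds made from tryptophan, were higher in 8 of 9 cases, with 5 separated upward and 1 downward and a median of 0.74. CYP79B2 (AT4G39950), which makes the first committed intermediate, had 154, 176 and 233 CPM with PAP + ATP and 129.9, 61.3 and 93 CPM with ATP (change 1.03 ± 0.26). CYP83B1 (AT4G31500), the next enzyme, had 863, 1019 and 2020.1 CPM and 851, 647 and 328 CPM in the same order, and PAP + ATP library 18 was highest. UGT74B1 (AT1G24100), a glucosyltransferase of the pathway, stood at 206, 218 and 328 CPM with PAP + ATP and 188, 152 and 111 CPM with ATP. The methyltransferase gene IGMT1 (AT1G21100) was low in both groups and had 16.9, 14.9 and 7.76 CPM against 2.6, 3.34 and 0.776 CPM. Aliphatic glucosinolate genes gave a smaller median of 0.35, with 3 of 12 separated upward and none downward. That median was 0.54 without PAP + ATP library 16, 0.32 without PAP + ATP library 18, 0.25 without ATP library 6 and 0.24 after median-of-ratios scaling. SUR1 (AT2G20610), which serves both branches, had 160.0, 169 and 269.6 CPM with PAP + ATP and 152, 128 and 92.5 CPM with ATP. MYB28 (AT5G61420), the regulator of the aliphatic branch, overlapped, with 11, 7.75 and 27.1 CPM and 7.81, 6.18 and 6.74 CPM.

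Among genes of salicylic acid and immunity, 13 of 15 had a positive change and 3 were separated upward, with a median of 0.66. That median was 0.36 without PAP + ATP library 18, 0.39 without ATP library 6 and 0.31 without PAP + ATP library 18 and ATP library 4. CBP60G (AT5G26920), a calmodulin-binding regulator of salicylic acid synthesis, had 28.4, 37.1 and 23.9 CPM with PAP + ATP and 12.1, 15.5 and 10.7 CPM with ATP (change 1.18 ± 0.44). EDS1 (AT3G48090) and PAD4 (AT3G52430), partners in immune signalling, overlapped. EDS1 had 74, 66.3 and 44.8 CPM in PAP + ATP leaves and 30.3, 29.8 and 45 CPM in ATP leaves, and PAD4 had 11.4, 19.3 and 21.3 CPM and 8.55, 11.5 and 9.07 CPM. Outside this list, the TIR-class resistance protein genes AT1G61100 and AT4G36150 were named for their small p-values. Both were separated, as the naming rule required, and other genes of that class were not counted. AT1G61100 had 228, 124 and 197 CPM with PAP + ATP and 72.7, 61.6 and 67.2 CPM with ATP. AT4G36150 had 12.9, 12.2 and 15.3 CPM against 4.12, 2.79 and 4.29 CPM, a change of 1.73 ± 0.39 (limma adjusted p = 0.2).

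**Figure D2:**
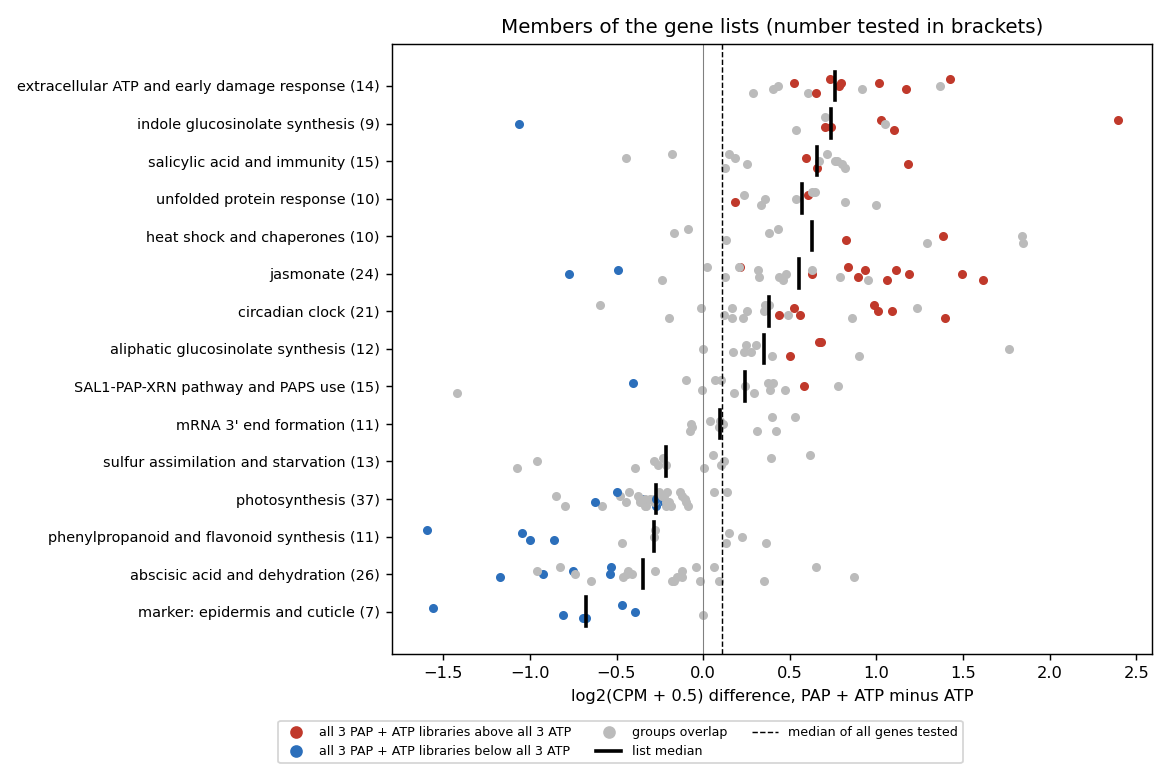
Change in log2(CPM + 0.5), PAP + ATP minus ATP, of each tested member of 15 gene lists, with the number tested in brackets. Coloured points are members whose libraries did not overlap, black bars are list medians and the dashed line is the median of all genes; the medians run from 0.76 for the extracellular ATP list to -0.68 for the epidermis markers.

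Further genes with small p-values among those higher with PAP + ATP had varied functions. AT2G47440, a tetratricopeptide repeat protein gene, had 18.5, 18 and 31 CPM with PAP + ATP and 9.28, 8.17 and 5.64 CPM with ATP, a change of 1.47 ± 0.25 (limma adjusted p = 0.103, DESeq2 adjusted p = 0.000183). AT1G67870, annotated as a glycine-rich protein, had 269, 194 and 291 CPM against 110.5, 121 and 110.5 CPM and a change of 1.12 ± 0.19 (limma adjusted p = 0.103). SERK2 (AT1G34210), a co-receptor kinase of growth and defence receptors, had 11.8, 11.5 and 17.9 CPM in PAP + ATP leaves and 7.11, 5.63 and 4.94 CPM in ATP leaves. GLR3.4 (AT1G05200), a glutamate receptor-like calcium channel, also did not overlap, with 40.1, 42.1 and 68.6 CPM and 24.3, 19.7 and 25 CPM. The galactan synthase gene GALS3 (AT4G20170) had 27.2, 30.0 and 50.1 CPM with PAP + ATP and 15, 12.4 and 17.1 CPM with ATP. EXO70H7 (AT5G59730), a subunit of the exocyst that tethers secretory vesicles, had 567, 455 and 381 CPM and 239, 254 and 145 CPM. Among the largest separated increases were low genes. AT4G01390, a TRAF-like gene, had 29.4, 3.96 and 25.6 CPM against 0.998, 2.07 and 1.47 CPM. YSL2 (AT5G24380), a metal-nicotianamine transporter gene, had 13.1, 17.9 and 75.7 CPM with PAP + ATP, where library 18 stood far above the other 2, and 5.99, 4.74 and 1.51 CPM with ATP.

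Of 21 circadian clock genes 18 had a positive change, with 7 separated upward and none downward and a median of 0.38. CHE (AT5G08330), a TCP factor that represses the morning gene CCA1, had 7.87, 18 and 13.9 CPM with PAP + ATP, against 5.86, 5.08 and 6.01 CPM with ATP. Its change was 1.09 ± 0.28 (limma adjusted p = 0.261, DESeq2 adjusted p = 0.0412). RVE8 (AT3G09600), a morning-phased activator of evening genes, had 4.88, 5.42 and 6.25 CPM in PAP + ATP leaves and 2.3, 2.03 and 3.23 CPM in ATP leaves. GRP7 (AT2G21660), a clock-driven RNA-binding protein gene, stood at 146, 136 and 382 CPM and 80.8, 80.2 and 63.5 CPM in the same order, and PAP + ATP library 18 was highest. The labels give no time of harvest.

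The evening element, spelled AAAATATCT and counted on both strands, is bound by CCA1 and RVE8. It was found in 2.36% of all promoters and in 6 of 21 clock members (28.6%). CHE and RVE8 held none in this window. GRP7 held 3 matches, 76, 55 and 31 bases before its start, and its promoter is shown for that reason, at chr2:9266558-9266807 on the minus strand of RefSeq TAIR10.1.
GRP7: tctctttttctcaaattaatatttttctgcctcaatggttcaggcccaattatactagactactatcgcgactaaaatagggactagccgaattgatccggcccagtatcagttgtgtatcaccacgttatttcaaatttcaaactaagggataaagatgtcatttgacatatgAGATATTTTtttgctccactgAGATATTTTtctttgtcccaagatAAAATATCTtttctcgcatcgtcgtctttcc
Capitals mark the evening elements.

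Chaperone genes were separated about as often as all genes, although most had a positive change. All 10 genes of the unfolded protein response in the endoplasmic reticulum had a positive change, 2 of them separated, with a median of 0.57. PDIL1-1 (AT1G21750), a protein disulfide isomerase gene, had 74.5, 76.1 and 95.5 CPM with PAP + ATP and 54, 47.5 and 59.7 CPM with ATP. BIP1 (AT5G28540), the main chaperone of that compartment, overlapped at 73, 91.3 and 124 CPM and 40.5, 32.8 and 76.8 CPM, as did the calnexin gene CNX1 (AT5G61790) at 44.8, 61.5 and 85 CPM and 39.3, 28.4 and 54.3 CPM. Of 10 heat shock genes 8 were higher and 2 separated, with a median of 0.63 that was 0.31 without PAP + ATP library 18. HSC70-1 (AT5G02500), the abundant cytosolic chaperone, had 985, 1162 and 3056 CPM with PAP + ATP and 916, 862 and 799.8 CPM with ATP, with library 18 far above the rest. BAG6 (AT2G46240), a co-chaperone gene, had 19.3, 14.4 and 39.9 CPM and 12.2, 6.31 and 7.31 CPM. Starch genes had a positive change in 9 of 11 cases, and only GBSS1 (AT1G32900), the amylose synthase gene, was separated, at 97.6, 107 and 554 CPM with PAP + ATP and 97.1, 60.8 and 70.0 CPM with ATP.

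In the opposite direction, 2 genes of the ATG8 family stood out; they were picked out after their values were seen. ATG8 proteins are ubiquitin-like proteins that coat autophagosome membranes. ATG8E (AT2G45170) had 13.4, 7.29 and 5.52 CPM with PAP + ATP, against 22, 26.9 and 36.5 CPM with ATP. The highest PAP + ATP library was below the lowest ATP library, and the change was -1.71 ± 0.38 (limma adjusted p = 0.2, DESeq2 adjusted p = 0.00972). ATG8H (AT3G06420) had 18.25, 8.07 and 5.58 CPM in PAP + ATP leaves and 23.5, 32.1 and 28.4 CPM in ATP leaves, a change of -1.51 ± 0.32 (limma adjusted p = 0.2, DESeq2 adjusted p = 0.0297). The other 5 family members tested were not separated, and the median over the 7 was -0.04.

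AT1G24440, a RING-type protein gene, was the gene with the smallest p among those lower with PAP + ATP. It had 6.2, 7.52 and 5.52 CPM, against 14.6, 15.1 and 14 CPM with ATP, and within each group the libraries were close together (change -1.13 ± 0.19, limma adjusted p = 0.103, DESeq2 adjusted p = 0.000115). ASP3 (AT5G11520), a peroxisomal aspartate aminotransferase gene, had 102, 55.1 and 57.4 CPM in PAP + ATP leaves and 127, 177 and 144 CPM in ATP leaves. The F-box gene AT1G23390 had 6.55, 5.74 and 5.37 CPM with PAP + ATP and 17.7, 15.7 and 18.6 CPM with ATP. CYP71B12 (AT5G25130), a cytochrome P450 gene, had 11.1, 5.88 and 7.5 CPM against 64.5, 57.6 and 26.8 CPM, a change of -2.48 ± 0.56 (limma adjusted p = 0.2, DESeq2 adjusted p = 0.00515). AT1G10580, a WD40-repeat protein gene, had 160.0, 185 and 157 CPM with PAP + ATP and 275, 388 and 732 CPM with ATP, where library 6 was highest. UBC19 (AT3G20060), a ubiquitin-conjugating enzyme gene, had 65.9, 66 and 41.8 CPM and 86.2, 102 and 103 CPM. ATCAD4 (AT3G19450), a cinnamyl alcohol dehydrogenase gene of lignin synthesis, had 32.2, 48.2 and 20.6 CPM in PAP + ATP leaves and 74.7, 56.1 and 76.2 CPM in ATP leaves.

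In several of the largest separated decreases 1 library stood apart from its group. ABCG1 (AT2G39350), a transporter gene of suberin deposition, had 51.3, 10.2 and 8.34 CPM with PAP + ATP and 122, 94.2 and 126 CPM with ATP. NAP (AT1G69490), a NAC factor gene that promotes leaf senescence, had 92.4, 16.2 and 1.09 CPM against 117, 169.7 and 121 CPM, and PAP + ATP library 16 lay near the ATP level while library 18 lay far below it (change -3.31 ± 1.16, and -1.77 without library 18). AT1G22470, of no described function, had 5.14, 2.55 and 6.15 CPM with PAP + ATP and 22.4, 27.9 and 29.9 CPM with ATP. AT1G15405 had 1.89, 2.55 and 0.573 CPM with PAP + ATP and 138, 3.39 and 3.19 CPM with ATP: library 4, the one rich in plastid and ribosomal RNA reads, was alone at 138 CPM. The change of AT1G15405 was -2.66 and -0.93 without ATP library 4, and the part of those reads in it was not tested.

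Photosynthesis genes were lower by a small amount in nearly every case. Of 37 tested, 35 had a negative change, 6 were separated downward and none upward, and the median was -0.27. It was -0.42 without PAP + ATP library 17 and -0.18 without ATP library 6. PSAN (AT5G64040), a photosystem I subunit, had 1537, 1847 and 1019 CPM with PAP + ATP and 2107, 2174 and 2310.0 CPM with ATP. PSAK (AT1G30380), another subunit of that complex, had 1401, 1744 and 1197 CPM against 1914, 1967 and 2199 CPM. Ribosomal protein genes, selected by their description and covering the cytosol and both organelles, gave 206 of 248 lower, 20 separated downward and 1 upward, with a median of -0.31. That median was -0.03 without ATP library 6, -0.13 without PAP + ATP library 16 and -0.48 without ATP library 5, so its size rested on single libraries. Histone genes gave 34 of 42 lower and 8 separated downward, with a median of -0.38, which was -0.21 without ATP library 6 and -0.23 without PAP + ATP library 16. After median-of-ratios scaling the medians of photosynthesis, ribosomal protein and histone genes were -0.38, -0.42 and -0.48.

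Markers of the leaf epidermis and its cuticle were lower in the PAP + ATP leaves. Of 7 tested, 6 were separated downward, and the median was -0.68, or -0.70 to -0.56 with 1 library left out. CER1 (AT1G02205), an enzyme of wax alkane synthesis, had 64.9, 107 and 58.4 CPM with PAP + ATP and 221, 168 and 283 CPM with ATP (change -1.56 ± 0.65). The lipid transfer protein gene LTP1 (AT2G38540) had 170.2, 191 and 155 CPM and 336, 257 and 314 CPM, and the wax exporter gene CER5 (AT1G51500) had 197, 178 and 147 CPM and 288, 275 and 269 CPM. ATML1 (AT4G21750), the factor that specifies epidermal identity, had 31.4, 44.2 and 37.2 CPM in PAP + ATP leaves and 55.4, 46.4 and 86.5 CPM in ATP leaves. Such markers also varied widely within other groups. CER1 had 86.2, 20.1 and 107 CPM in control and 174, 360 and 45.9 CPM with PAP alone. ATML1 had 46.0, 98.9 and 11.7 CPM with PAP alone. In whole leaves a smaller share of epidermal cells and less of these transcripts per cell cannot be told apart. Guard cell markers gave 1 of 7 separated in each direction, and phloem and xylem markers 2 of 10 upward and 1 downward. The part of tissue composition in the other lists was not tested.

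Abscisic acid and dehydration genes were lower in 21 of 26 cases, with 5 separated downward, none upward and a median of -0.35. Without PAP + ATP library 18 the median was 0.04, and 0.07 without that library and ATP library 4, so the direction of the list rested on library 18. CYP707A3 (AT5G45340), which breaks down abscisic acid, had 19.6, 14.1 and 9.01 CPM with PAP + ATP and 32.6, 26.3 and 35.2 CPM with ATP (change -1.17 ± 0.46). The dehydrin gene LTI30 (AT3G50970) had 316, 198 and 318 CPM against 406, 451 and 519.9 CPM, and the cold and dehydration gene KIN1 (AT5G15960) had 415, 337 and 203 CPM against 600.4, 622 and 518 CPM. Phenylpropanoid and flavonoid genes gave 4 of 11 separated downward and none upward, with a median of -0.29 that was -0.13 without PAP + ATP library 16, -0.15 without ATP library 6, -0.52 without PAP + ATP library 17 and -0.60 without PAP + ATP library 18. C4H (AT2G30490), the second enzyme of the pathway, had 254, 299 and 310.5 CPM in PAP + ATP leaves and 612, 542 and 630.4 CPM in ATP leaves. The chalcone isomerase gene TT5 (AT3G55120) had 5.41, 3.69 and 6.51 CPM and 11.2, 9.86 and 11 CPM, and the flavonol synthase gene FLS1 (AT5G08640) had 1.14, 1.46 and 1.41 CPM and 4.21, 3.6 and 8.25 CPM in the same order.

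The microRNA gene MIR398c (AT5G14565) and the genes known as targets of miR398 were also examined, after their values had been seen. Of the 7 genes listed 5 were tested, and MIR398c was the only miR398 precursor gene among them. In Arabidopsis miR398 lowers the copper-zinc superoxide dismutases CSD1 (AT1G08830) and CSD2 (AT2G28190), their copper chaperone CCS (AT1G12520) and the cytochrome oxidase subunit encoded by AT3G15640, mainly when copper is scarce. The mature sequence from RefSeq TAIR10.1 lies at chr5:4694778-4694798 on the plus strand and is shown in DNA letters with the seed, bases 2 to 8, in capitals. Below it stands the most complementary stretch of CSD1 without gaps, on chromosome 1 of the same build, plus strand, in the 5′ UTR. This stretch is joined across an intron between positions 2827177 and 2827685, has 4 mismatches, 1 of them opposite the seed, and is shown with the 7 bases opposite the seed in capitals.
miR398c-3p: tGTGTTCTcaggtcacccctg
CSD1 site: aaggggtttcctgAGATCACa
Only 4 of 27444 protein-coding genes (0.0146%) had a stretch with 4 or fewer mismatches. Sites that pair through a bulge were outside this search.

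MIR398c had 7.12, 15.9 and 32.1 CPM with PAP + ATP, against 3.9, 5.08 and 2.04 CPM with ATP, and the groups did not overlap. Its change was 2.01 ± 0.54 (limma adjusted p = 0.274, DESeq2 adjusted p = 0.0471). These libraries of polyadenylated RNA measure the precursor transcript, not the mature 21-base RNA. CSD1 was separated downward, with 215, 214 and 82.5 CPM in PAP + ATP leaves and 238, 281 and 397 CPM in ATP leaves. The change of CSD1 was -0.93 ± 0.29 (limma adjusted p = 0.301, DESeq2 adjusted p = 0.124). Without PAP + ATP library 18 that change was -0.48. AT3G15640 had 29, 34.9 and 27.9 CPM and 35.6, 37.8 and 51.9 CPM in the same order, also separated. CSD2 had 129, 178 and 11.4 CPM with PAP + ATP and 165, 148 and 1187 CPM with ATP. CCS had 25.1, 27.1 and 5.37 CPM against 24.3, 19.6 and 142 CPM. For CSD2 and CCS the groups overlapped: PAP + ATP library 18 was lowest, ATP library 6 was highest, and the other 4 libraries lay close together. MIR398c was likewise highest in PAP + ATP library 18 and lowest in ATP library 6.

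**Figure D3:**
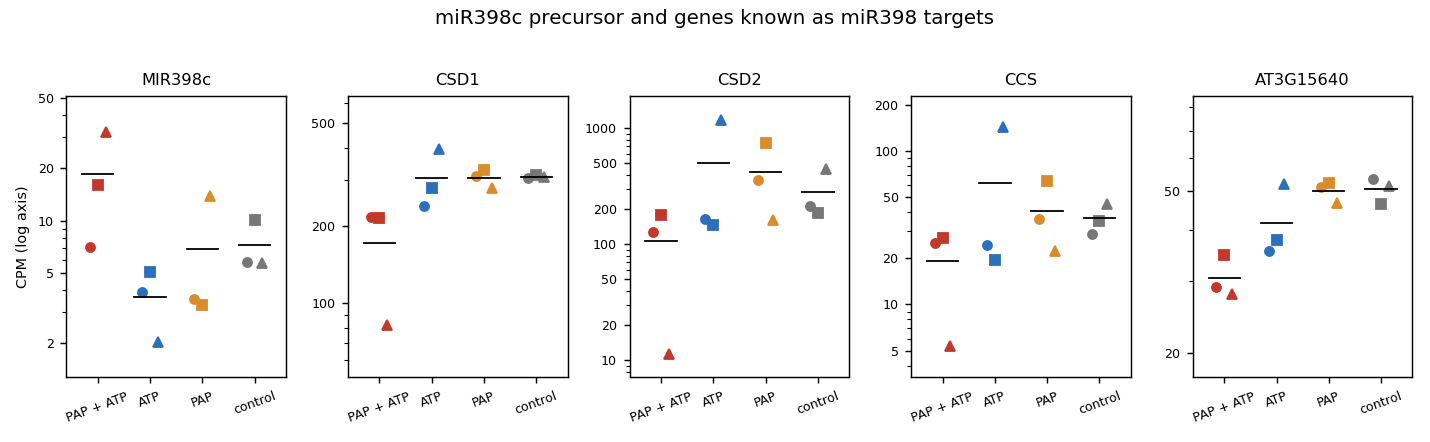
The miR398c precursor and 4 genes known as miR398 targets, in CPM on a log axis, in PAP + ATP, ATP, PAP and control leaves. Each point is 1 library and the line is the mean of 3; MIR398c lies between 7.12 and 32.1 CPM with PAP + ATP and between 2.04 and 5.08 CPM with ATP, while CSD2 spans 11.4 to 178 CPM and 148 to 1187 CPM.

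Genes of the PAP pathway itself were mostly not separated. Of 15 genes of SAL1 (AT5G63980), the XRN exoribonucleases and PAPS use, 1 was separated upward and 1 downward. SAL1 had 107, 103 and 219.9 CPM with PAP + ATP and 141, 128 and 93 CPM with ATP, with library 18 alone above the ATP range (change 0.18 ± 0.29). Of the exoribonucleases, the nuclear XRN2 (AT5G42540) had 16.5, 16.5 and 21.6 CPM and 10.8, 9.35 and 24.4 CPM, the nuclear XRN3 (AT1G75660) 37.7, 37.7 and 37.8 CPM and 30.7, 28 and 50.1 CPM, and the cytosolic XRN4 (AT1G54490) 40.9, 32.6 and 41.3 CPM and 32.5, 25.9 and 35.3 CPM, PAP + ATP before ATP. Each of the 3 overlapped between groups, with changes of 0.40 ± 0.38, 0.10 ± 0.34 and 0.29 ± 0.32. Without ATP library 5 these changes were 0.15, -0.05 and 0.17. APK2 (AT4G39940), which makes the sulfate donor PAPS, was the upward member, at 294, 251 and 274 CPM in PAP + ATP leaves and 236, 219.9 and 115 CPM in ATP leaves. SOT17 (AT1G18590), a sulfotransferase of glucosinolate synthesis, overlapped at 42.4, 40.4 and 145 CPM and 49.8, 34.2 and 28.6 CPM. SOT12 (AT2G03760), a sulfotransferase gene of stress responses, had 285, 73.9 and 70.3 CPM with PAP + ATP and 299.9, 497 and 193 CPM with ATP, where library 16 stood within the ATP range. ZAT10 (AT1G27730) and DREB2A (AT5G05410), stress factor genes that rise when PAP accumulates in sal1 mutants, overlapped. ZAT10 had 217, 184 and 225 CPM with PAP + ATP and 158, 194 and 107 CPM with ATP (change 0.48 ± 0.53, or 0.25 without ATP library 6), and DREB2A had 41.9, 12.9 and 11.3 CPM and 15.7, 23.4 and 15.2 CPM (change 0.05 ± 0.48). APX2 and ELIP2, high light genes, were not tested.

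Of 14 genes that break down, move or salvage nucleotides, 1 was separated upward and 1 downward. APY1 (AT3G04080), an apyrase that hydrolyses ATP, had 31.3, 31.6 and 42.9 CPM with PAP + ATP and 25.8, 29.9 and 21.1 CPM with ATP. URH1 (AT2G36310), a nucleoside hydrolase gene, had 31.2, 41.2 and 45.1 CPM in PAP + ATP leaves and 65.6, 59.1 and 87 CPM in ATP leaves (change -0.84 ± 0.26, limma adjusted p = 0.288, DESeq2 adjusted p = 0.0279). Phosphate starvation genes gave 4 of 14 separated upward and 1 downward, and 9 had a positive change. Their median was 0.21, against 0.11 for all genes, and 0.12 after median-of-ratios scaling. PHO2 (AT2G33770), which limits phosphate uptake, had 77.7, 80.8 and 135 CPM with PAP + ATP and 51.6, 41.5 and 39.2 CPM with ATP (change 1.11 ± 0.29, limma adjusted p = 0.273, DESeq2 adjusted p = 0.0465). PHO1;H1 (AT1G68740), a phosphate exporter gene, had 4.22, 4.06 and 4.22 CPM against 1.91, 1.23 and 0.49 CPM, and the purple acid phosphatase gene PAP12 (AT2G27190) had 22, 20.8 and 25.4 CPM against 13.5, 9.14 and 8.3 CPM. None of 13 sulfur genes was separated; the sulfate transporter gene SULTR1;2 (AT1G78000) was below 2 CPM in every library. VTC2 (AT4G26850), an enzyme of ascorbate synthesis, had 95.7, 101 and 153 CPM in PAP + ATP leaves and 75.4, 73.9 and 64.6 CPM in ATP leaves.

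The series title concerns transcription running past gene ends into neighbours. None of 11 genes of mRNA 3′ end formation was separated, and their median change of 0.10 had no stable direction, at -0.10 without ATP library 5, -0.05 without PAP + ATP library 18, 0.34 without ATP library 6 and -0.0078 after scaling. A gene was counted as downstream if, on its own strand, a neighbour at least 10 times more abundant in CPM ended no more than 500 bp ahead of its start. The 445 such genes had a median change of 0.021, with 8.54% separated upward and 6.97% downward. The 576 genes with no neighbour within 2000 bp had a median of 0.13, with 12.5% upward and 5.56% downward. With gaps of 250 and 1000 bp the medians of downstream genes were 0.035 and 0.038. The library kit does not keep the strand, so reads of overlapping antisense genes cannot be told apart.

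Whether PAP acted differently with and without ATP was tested as the difference of both effects, PAP + ATP minus ATP and PAP minus control, which share no library. No gene of 17605 passed in limma (percent called 0, smallest adjusted p 0.0789), with 1591 higher (9.04%) and 598 lower (3.4%) at an unadjusted p under 0.05. After median-of-ratios scaling these numbers were 911 and 1290, so the excess of higher genes turned round with the scaling. The same test by edgeR called 0 and by DESeq2 160. With only the groups compared in the limma fit, the smallest adjusted p was 0.477 instead of 0.0789. Leaving out control library 1 gave 310 calls in limma, and leaving out PAP library 9 gave 3. Across these genes the changes had a Pearson correlation of -0.36 and a Spearman correlation of -0.32, a description over genes of 2 sets of 6 libraries that are not independent points. PAP against control alone gave 0 calls of 17657 in limma, with 184 higher (1.04%) and 663 lower (3.75%) at an unadjusted p under 0.05, against 413 and 383 after scaling.

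**Figure D4:**
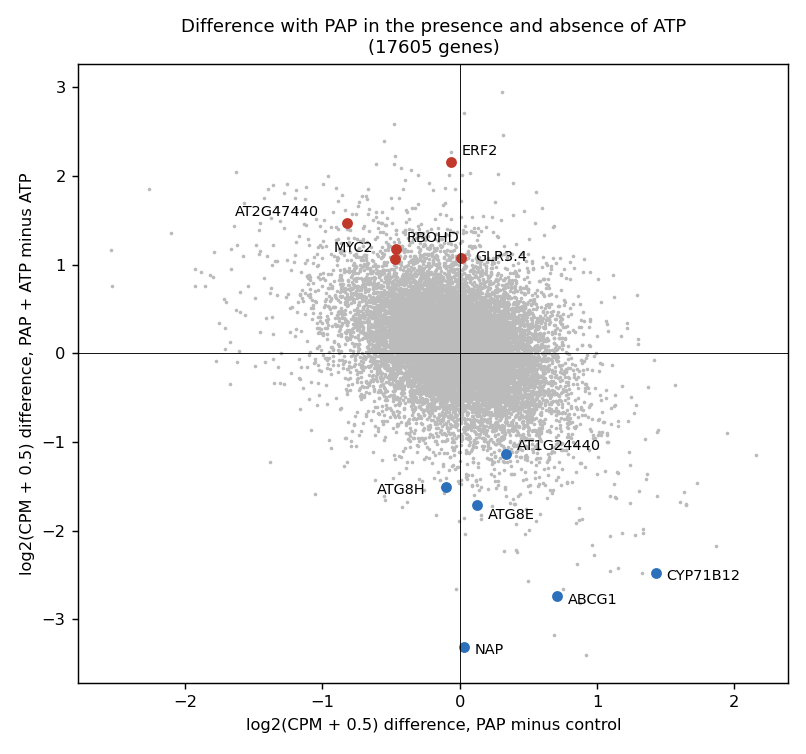
Change with PAP in ATP-fed leaves (vertical, PAP + ATP minus ATP) against change with PAP in leaves without ATP (horizontal, PAP minus control), both in log2(CPM + 0.5), for 17605 genes. Grey points are genes and coloured points 11 named genes; the cloud slopes downward with a Pearson correlation of -0.36, and CYP71B12 lies at -2.48 on the vertical and 1.43 on the horizontal axis.

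AT2G47440 had the smallest p for this difference. With PAP alone it had 15.9, 17 and 13.7 CPM, against 21.9, 38.5 and 25.5 CPM in control, a change of -0.82 ± 0.25, and the difference between the effects was 2.29 ± 0.35 (limma adjusted p = 0.0789). RBOHD had 97.9, 77.3 and 93.9 CPM with PAP alone and 109, 194 and 88.8 CPM in control, and its difference was 1.64 ± 0.33 (limma adjusted p = 0.191). AT1G24440 had 8.09, 8.93 and 6.89 CPM and 6.43, 5.52 and 6.65 CPM in PAP and control leaves, both near its level with PAP + ATP, and its difference was -1.47 ± 0.27 (limma adjusted p = 0.185). CYP71B12 had 22.2, 12.4 and 10.9 CPM with PAP and 10.8, 1.18 and 8.5 CPM in control, with a difference of -3.91 ± 0.80 (limma adjusted p = 0.191). ATG8E had 4.93, 10.8 and 4.01 CPM with PAP and 3.76, 4.02 and 10.5 CPM in control. ATG8H had 9.03, 7.14 and 6.81 CPM with PAP and 8.29, 5.77 and 11.5 CPM in control. For AT1G24440, ATG8E, ATG8H and CYP71B12 the ATP group stood above the PAP + ATP, PAP and control groups, and the 3 ATP libraries lay above all 9 others. MYC2 had 789, 607 and 766 CPM with PAP and 1088, 968 and 936 CPM in control, and GLR3.4 had 51.9, 70.2 and 44.6 CPM and 42.1, 58 and 65.3 CPM. For GLR3.4 and AT2G47440 the 3 ATP libraries lay below all 9 others, and for MYC2 ATP library 4 lay just above PAP library 8. ERF2 differed from these: it had 42.8, 30.5 and 159 CPM with PAP and 62, 40.7 and 94.8 CPM in control, within or near its ATP range except for PAP library 9 and control library 3, and the 3 PAP + ATP libraries stood above all of these. The ATP libraries enter PAP + ATP against ATP and any comparison of ATP with control alike, so the 2 comparisons are not independent. For scale, ATP against control called 1283 of 17667 genes in limma (7.26%), with 1033 higher (5.85%) and 3246 lower (18.4%) at an unadjusted p under 0.05. After scaling it called 894, with 1997 higher and 1859 lower at that p. PAP + ATP against control called 383 of 17674 (2.17%), with 1237 higher (7%) and 2235 lower (12.6%) at that p. After scaling it called 486, with 1961 higher and 1600 lower, so the side with more genes depended on the scaling in both comparisons.

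**Figure D5:**
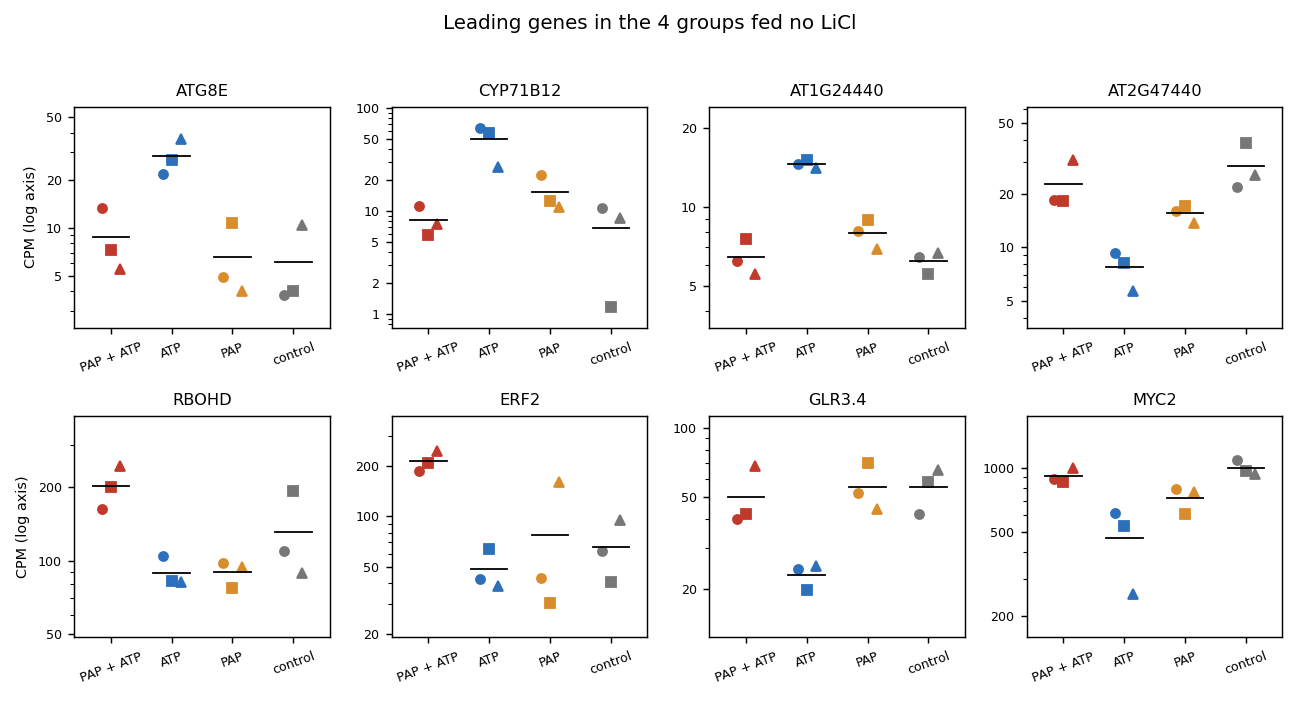
CPM on a log axis of 8 leading genes in PAP + ATP, ATP, PAP and control leaves, with 3 libraries per group and the mean as a line. ATG8E has means of 8.74 CPM in PAP + ATP, 28.5 in ATP, 6.57 in PAP and 6.09 in control, and ERF2 214, 48.5, 77.6 and 65.8 in the same order.

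Set against the effect of PAP in LiCl-fed leaves (PAP + LiCl minus LiCl), where LiCl is a known inhibitor of SAL1, no gene of 17544 passed in limma (percent called 0, smallest adjusted p 0.568). At an unadjusted p under 0.05, 889 genes were higher (5.07%) and 305 lower (1.74%), against 544 and 637 after median-of-ratios scaling. For this difference edgeR called 0 and DESeq2 19. PAP + LiCl against LiCl called 0 of 17609 in limma, with 76 higher (0.432%) and 54 lower (0.307%) at an unadjusted p under 0.05. Across genes the Pearson correlation of the 2 effects was -0.10. AT1G24440 had a change of 0.28 ± 0.19 with PAP in LiCl-fed leaves, and the difference from its change in ATP-fed leaves was -1.41 ± 0.27 (limma adjusted p = 0.568). SERK2 had a change of -0.34 ± 0.21 in LiCl-fed leaves, with a difference of 1.48 ± 0.30 (limma adjusted p = 0.568). Medians of the extracellular ATP list were 0.76 for PAP + ATP against ATP, -0.45 for PAP against control and 0.11 for PAP + LiCl against LiCl. Jasmonate medians were 0.55, -0.33 and 0.04 in the same comparisons, and photosynthesis medians -0.27, 0.27 and 0.13. Against control, the extracellular ATP list had medians of 0.06 with ATP and 0.90 with PAP + ATP. In the same order the medians were -0.59 and -0.07 for jasmonate, -0.63 and 0.22 for indole and -1.06 and -0.75 for aliphatic glucosinolate genes. Photosynthesis genes had 0.21 and -0.09, epidermis markers 0.60 and 0.15, and all genes -0.16 and -0.085. The differences between these medians were not tested.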

How the data were processed

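Messenger RNA libraries were prepared with the Illumina TruSeq V2 kit, per the labels' protocols, and the submitters' processing notes name Subread, featureCounts and the TAIR10 build, with versions not given in the sources used here. The deposited table gives CPM per gene, per the labels, and 100% of values were whole multiples of 1 read (tolerance 1e-06), from which read counts were recovered; 1 read was worth 0.0409 to 0.0521 CPM in the 6 libraries. Columns name groups but not replicates. Genes that reached 1 CPM in 3 or more of the 21 libraries were fitted on log2(CPM + 0.5) with limma 3.58.1 (R 4.3.3), 7 group means, a trended prior and two-sided Benjamini-Hochberg tests over all genes; edgeR 4.0.16 and DESeq2 1.42.0 ran on recovered reads. Analyses were tested on simulated data. Members and lists were chosen with earlier results of these data known: 392 of 423 list members were matched and in the table. Genes were named by a rule: a mean of at least 5 CPM and no overlap, the 15 smallest p-values and 6 largest changes per direction, 3 members per list, the 5 smallest p-values per direction for both differences of effects, and 8 pathway genes. ATG8 and miR398 genes were added after their values were seen, as were DORN1, other list members printed for contrast, and ribosomal protein and histone lists by description. Sequences and positions are RefSeq TAIR10.1, matched by locus; 20952 loci were found.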

Additional observations from a re-analysis of the deposited data

How the results depend on the processing

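PAP + ATP against ATP gave 0 calls in limma with a pseudocount of 0.1 or 2, a robust prior, no expression filter, only genes of at least 5 CPM on average, only the 6 libraries fitted, or median-of-ratios scaling, and also with edgeR. It gave 127 with DESeq2, 612 with library weights, and 0 to 3 with 1 library left out. Weights were estimated gene by gene, at 0.367 to 1.62 for PAP + ATP and 0.350 to 5.43 for ATP, with ATP library 4 highest; a likelihood fit of weights did not converge and was not used. The difference between the effects with and without ATP gave 1 call at a mean of at least 5 CPM, 568 with library weights, 160 with DESeq2 and 0 to 310 with 1 library left out. Against the effect with LiCl, library weights gave 6 and DESeq2 19. Scaling put the genes separated downward at 1608. The phosphate median was 0.12 with scaling. Without ATP library 4 and PAP + ATP library 18, an alternative chosen after seeing the data, the medians were 0.99 for extracellular ATP, 0.27 for phosphate, 0.31 for salicylic acid, 0.23 for ethylene, -0.90 for phenylpropanoid and -0.58 for guard cell genes. With 1 library left out they ranged from -0.12 to 0.24 for high light, 0.21 to 0.27 for phosphate, 0.36 to 0.82 for salicylic acid, -0.60 to -0.13 for phenylpropanoid, -0.49 to 0.59 for guard cell, and 0.20 to 0.46 for phloem and xylem genes. Of 91 named genes, 88 kept their sign in each alternative that gave them a value. SULTR1;2, AT1G22470, FLS1, PHO1;H1 and RVE8 had no value in some. Many genes were named because they were separated or had small p-values in these same libraries. A separated gene keeps its sign whichever library is left out, so the count of 88 was partly fixed in advance. SAL1 was -0.23 with library weights, -0.058 without ATP library 4 and PAP + ATP library 18, and -0.18 to 0.36 with 1 library left out. XRN3 was -0.00476 with scaling, -0.017 with edgeR, -0.026 with DESeq2, and -0.054 to 0.36 with 1 left out. DREB2A was -0.060 with scaling and -0.54 to 0.39 with 1 left out. DESeq2 called 25 of the named genes, against 127 of all 17432 it tested. Library weights called 39 of the named genes, against 612 of all 17710. The named genes were picked partly by small p-values in these same libraries, so a larger share of calls among them was partly built in. The cause of the differences between settings was not tested. No paired analysis was possible because the table's columns name the group and not the replicate number of the labels.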

Other observations

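Several gene groups not described above were mixed in PAP + ATP against ATP. Of 10 senescence and dark starvation genes tested, 1 was separated upward and 1 downward, with a median change of 0.20 that was 0.017 without ATP library 5, 0.056 without ATP library 6, 0.087 without PAP + ATP library 16 and 0.098 after median-of-ratios scaling. Of 7 nitrogen assimilation genes 1 was separated in each direction, with a median of 0.38 that was 0.18 without ATP library 6 and 0.24 without PAP + ATP library 16. The 5 mitochondrial retrograde genes tested gave 1 upward and none downward, with a median of 0.07. None of 12 nucleolar ribosome biogenesis genes was separated, with 6 higher and 6 lower. High light and oxidative stress genes gave 2 of 17 upward and 3 downward, with a median of 0.048. After median-of-ratios scaling the mitochondrial and high light medians were -0.037 and -0.060, so neither list had a stable direction. Only 1 of 4 trichome markers was tested.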
